A study of Mus with 6 samples.

Results

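Genes for 6 kinases of the mitogen activated protein kinase (MAPK) cascade were followed in lens epithelial cells (LECs) after lens injury: Map2k3, Map3k6, Map3k8, Map3k14, Map3k21 and Mapkapk2. They were picked by symbol, each was matched to its Ensembl identifier, and all 6 of the 6 were counted and passed the filter on low counts, among 55421 genes counted and 16810 genes tested. By the naming of mouse genes, only Map2k3 encodes a MAP kinase kinase (MAP2K). Map3k6, Map3k8, Map3k14 and Map3k21 encode kinases of the tier above (MAP3K), and Mapkapk2 encodes a kinase that is itself a substrate of a MAPK. The RNAseq covers wild type C57BL/6 mice, with an age of 2 months in the labels and a higher age in the methods, at 0 h and 6 h after the surgical removal of the lens fiber cells (post cataract surgery, PCS). The 0 h PCS samples were operated as well and taken at once, so both groups have lost their fiber cells and differ in the time since then. Each time point had 3 libraries, each from a pool of 5 lens capsules with their attached cells, so no value belongs to a single mouse. The labels describe the eyes of a mouse as operated 6 h apart and do not say which pools share mice, whereas the methods describe independent animals.

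MAPK signaling runs through tiers of kinases, each of which phosphorylates and so activates the next. A MAP3K, which senses stress, cytokine or growth factor receptors, activates a MAP2K, the MAP2K activates a MAPK of the ERK, JNK or p38 type, and the MAPK acts on transcription factors and on downstream kinases. In epithelia the pathway is known for its rapid response to wounding and for feeding into immediate early gene expression. The comparison asks how much mRNA of these kinases the cells held before and after 6 h of response.

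The libraries held 18039974 to 24701039 counted read pairs, of which each of the 6 genes had 97 to 3708. The libraries were amplified by PCR without molecular identifiers. The labelled cell type was checked with 8 lens epithelial markers, of which 5 could be matched to a counted gene. All 5, Pax6 and Foxe3 among them, had counts in every library, and their summed level was 1088 to 1285 CPM (counts per 1000000, scaled with the TMM factors of edgeR) at 0 h PCS and 1177 to 1386 CPM at 6 h PCS. Of the 5, Epha2 was upregulated (log2 fold change 1.21, edgeR adjusted p = 0.0134), Sox2 was lower at a fold change under 2 (−0.70, edgeR adjusted p = 0.0151), and Pax6, Foxe3 and Gja1 did not pass the test. Markers of other cells were detected at both times. The 7 matched leukocyte markers summed to 14.0 to 26.5 CPM at 0 h PCS and 18.5 to 35.5 CPM at 6 h PCS, with Cd68 upregulated, the other 6 not called and 0 of the 7 without counts in all libraries. The 4 hemoglobin genes, all upregulated, summed to 6.43 to 17.5 CPM and 62.6 to 113.6 CPM, the 2 matched corneal keratins Krt12 and Krt5 to 0.765 to 14.7 CPM and 69.2 to 104 CPM, the 4 endothelial markers to 4.10 to 26.3 CPM and 20.0 to 36.9 CPM, the 2 stromal markers to 10.1 to 20.7 CPM and 6.24 to 118.9 CPM, and the 4 matched pigment cell markers to 51.4 to 209 CPM and 77.4 to 1965 CPM. The 2 matched lens fiber markers summed to 1359 to 1830 CPM and 1182 to 1614 CPM. The part of these other cells in the values below was not tested, and in bulk RNA fewer cells of a type and less RNA per cell cannot be told apart.

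At 6 h PCS, Map2k3, Map3k6, Map3k8 and Mapkapk2 were upregulated 2.20-fold to 5.00-fold, Map3k21 was downregulated 2.33-fold, and Map3k14 did not pass the test. A differentially expressed gene (DEG) here has a false discovery rate of at most 0.05 in edgeR's quasi-likelihood test, adjusted by Benjamini-Hochberg over all genes tested, and a fold change above 2. By this rule, 4 of the 6 genes were upregulated DEGs, where 4.53% of all tested genes were, and 1 of the 6 was a downregulated DEG, where 0.821% were. Among the tested genes that could be named, as these 6 were, the shares were 11.6% and 2.1%. By the false discovery rate alone the same 4 and 1 genes passed, where 6.31% and 2.02% of all tested genes did. In 5 genes all 3 libraries at 6 h PCS lay above all 3 at 0 h PCS, and in Map3k21 they all lay below, as they did in 15.3% of all tested genes in each direction. The median log2 fold change of the 6 genes was 1.43, against −0.003 over all tested genes and 0.19 over the named ones. The genes were chosen with these results known, so the counts describe them and are no evidence on MAPK genes in general.

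**Figure D1:**
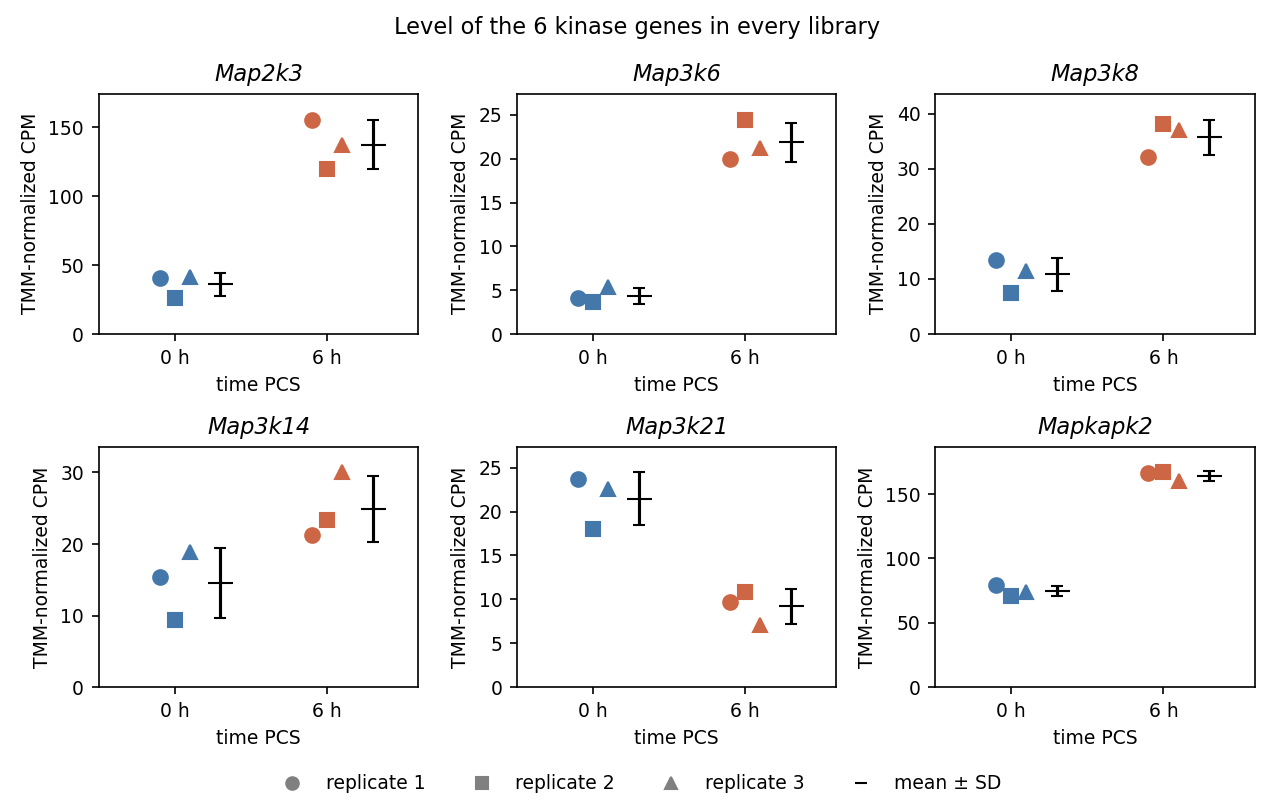
TMM-normalized CPM (vertical axis, from 0) of each kinase gene at 0 h and 6 h PCS. Every symbol is a library, with its shape giving the replicate number, and the black bar gives the mean ± SD of 3 libraries. The time points do not overlap in any of the 6 panels, they lie closest in Map3k14 (highest 18.9 CPM at 0 h PCS, lowest 21.2 CPM at 6 h PCS), and replicate 2 is the lowest 0 h library in each panel.

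At the MAP2K tier, Map2k3 (ENSMUSG00000018932, chromosome 11 of GRCm38.p6, 60932054 to 60952811) encodes MKK3, which phosphorylates and activates p38 MAPKs. Its libraries held 40.4, 26.5 and 41.2 CPM at 0 h PCS and, at 6 h PCS, 155, 120 and 137 CPM. Even the lowest library at 6 h PCS was far above the highest at 0 h PCS. The mean rose from 36.0 ± 8.31 to 137 ± 17.6 CPM (n = 3, SD), with a log2 fold change of 1.93 (standard error, SE, 0.194, edgeR quasi-likelihood adjusted p = 0.000431). The mean level placed Map2k3 at the 78.3 percentile of tested genes at 0 h PCS and at the 94.4 percentile at 6 h PCS.

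The gene for the other p38-activating kinase with a name at hand, Map2k6, had the opposite sign and did not pass the test. It was at 16.7 ± 3.93 CPM at 0 h PCS, against 10.1 ± 2.48 CPM 6 h later (n = 3, SD), with a log2 fold change of −0.72 (95% interval −1.29 to −0.15, edgeR adjusted p = 0.12). With libraries scaled on their size alone, Map2k6 became a downregulated DEG (−1.02). The ratio of Map2k3 to Map2k6 counts within a library, which does not depend on the scaling, was 3.09, 1.27 and 2.55 at 0 h PCS and 18.9, 9.29 and 14.9 at 6 h PCS. The ranges were apart, with p = 0.10 in an exact two-sided permutation test on log2 ratios, the smallest p that 3 libraries against 3 allow. In all, 5 such ratios were tested, and 0.05 is out of reach for each.

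Map2k3os, a long noncoding RNA gene named for the strand opposite to Map2k3, lies 186 bases from Map2k3 in the RefSeq annotation (chromosome 11, 60920941 to 60931867) and does not overlap it. It had 37, 6 and 5 read pairs at 0 h PCS and 49, 339 and 185 at 6 h PCS. Its log2 fold change was 3.88 (SE 0.920, edgeR quasi-likelihood adjusted p = 0.0472). It was a DEG in only 2 of the 6 fits that each left out a library. In those 6 fits the log2 fold change ran from 3.42 to 5.47, highest without 0 h replicate 1. Map2k3os was not a DEG with no filter on low counts (edgeR adjusted p = 0.111) or with a replicate block (edgeR adjusted p = 0.173). The strand setting of the counting is not given in the sources used here, so read pairs of both genes may have been mixed. With the counts of Map2k3os added to those of Map2k3, the log2 fold change of Map2k3 was 2.01.

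Among the MAP3K genes, Map3k6 showed the largest change of the 6. Map3k6 (ENSMUSG00000028862, chromosome 4, 133237979 to 133252929) encodes ASK2, a stress-responsive kinase that forms complexes with its relative ASK1. Its level was 4.17, 3.61 and 5.35 CPM at 0 h PCS and, at 6 h PCS, 20.0, 24.4 and 21.2 CPM. The groups were far apart, with the lowest library at 6 h PCS well above the highest at 0 h PCS. The mean rose from 4.38 ± 0.890 to 21.9 ± 2.26 CPM (n = 3, SD), with a log2 fold change of 2.32 (SE 0.228, edgeR quasi-likelihood adjusted p = 0.000411), which ranked 446 from the top among the 16810 tested genes. The span of Map3k6 shares 1308 bases with the pseudogene Fcnc-ps.

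Map3k5, which encodes ASK1, did not pass the test. It was at 62.9 ± 4.52 CPM and 82.3 ± 14.2 CPM (n = 3, SD), with a log2 fold change of 0.39 (95% interval 0.04 to 0.73, edgeR adjusted p = 0.167). The ratio of Map3k6 to Map3k5 counts was 0.0674, 0.0612 and 0.0789 at 0 h PCS and 0.239, 0.361 and 0.222 at 6 h PCS. These ranges were apart as well (p = 0.10, exact two-sided permutation test). No exon length was at hand for Map3k5, so the levels of the pair are not compared per length.

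Map3k8 (ENSMUSG00000024235, chromosome 18, 4331325 to 4352953) encodes TPL2, also called COT, which links Toll-like, interleukin and tumor necrosis factor receptors to the ERK branch. Its libraries held 13.4, 7.54 and 11.5 CPM at 0 h PCS and, at 6 h PCS, 32.2, 38.0 and 37.0 CPM, without overlap. The mean rose from 10.8 ± 3.00 to 35.7 ± 3.14 CPM (n = 3, SD), with a log2 fold change of 1.72 (SE 0.225, edgeR quasi-likelihood adjusted p = 0.00176). Leukocytes also express Map3k8. The pan-leukocyte gene Ptprc had 1.04 ± 1.03 CPM at 0 h PCS, against 2.54 ± 0.884 CPM 6 h later (SD, n = 3), with at most 72 read pairs in a library. The macrophage marker Cd68 rose from 1.03 ± 0.451 to 5.99 ± 2.92 CPM (SD, n = 3). Of the 7 matched leukocyte markers only Cd68 was called, and Ptprc did not pass the test (edgeR adjusted p = 0.374). Csf1r (log2 fold change −0.11) and Lyz2 (−0.16) were lower at 6 h PCS. Adgre1 (0.10), Cx3cr1 (0.51) and Itgam, with at most 16 read pairs in a library, were higher but did not pass either.

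TPL2 protein is held inactive and stable by the product of Nfkb1 and by ABIN-2, the product of Tnip2. The list around TPL2 held these genes and Tnip1, whose product is a relative of ABIN-2. All 3 were upregulated DEGs, where 4.53% of all tested genes and 11.6% of the named genes tested were. The names at hand lean towards changed genes, so the share among named genes is the closer background for these lists. The lists were drawn up with earlier results known, so counts from them describe the listed genes only. Nfkb1 had a log2 fold change of 1.57 (SE 0.309), Tnip2 of 1.23 (SE 0.237), and Tnip1, the gene for the related ABIN-1, of 1.87 (SE 0.185). Tnip1 was a DEG in all 6 fits that left out a library, Nfkb1 and Tnip2 in 4, and Tnip2 was not a DEG with library size scaling (0.90). Per length, the ratio of Map3k8 to Nfkb1 was 0.769, 0.696 and 0.591 at 0 h PCS and 1.04, 0.828 and 0.566 at 6 h PCS, which overlapped (p = 0.50, exact two-sided permutation test).

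Map3k14 (ENSMUSG00000020941, chromosome 11, 103219764 to 103267401) encodes NIK, the kinase that starts noncanonical NF-kB signaling and whose protein is kept low by constant degradation. It was at 15.4, 9.36 and 18.9 CPM at 0 h PCS and, at 6 h PCS, 21.2, 23.3 and 30.1 CPM. The libraries just failed to overlap, and the spread at 0 h PCS was wide. The means were 14.6 ± 4.84 and 24.9 ± 4.62 CPM (n = 3, SD), with a log2 fold change of 0.77 (SE 0.263, 95% interval 0.19 to 1.36, edgeR quasi-likelihood adjusted p = 0.108). With no filter on low counts its edgeR adjusted p was 0.0107 and with a replicate block 0.0421, in both at a fold change under 2. Per length and without TMM factors the libraries did overlap, with 2.56, 1.59 and 3.31 FPKM at 0 h PCS and 2.67, 3.52 and 4.02 FPKM at 6 h PCS. Its RefSeq span shares 18998 bases with the long noncoding RNA gene Gm34823. Whether their exons overlap, and whether Gm34823 was in the annotation used for counting, was not checked. Read pairs on both may therefore have been left out or mixed.

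Genes that act around NIK were listed as 11 partners, of which 8 were matched and tested. Of the 8, 4 were upregulated DEGs, against 11.6% of the named genes tested, 4 did not pass and 0 fell. The DEGs were Nfkb2, whose product p100 is processed after NIK signaling (log2 fold change 2.15, SE 0.315), Relb, its dimer partner (1.24, SE 0.291), Birc3, a ubiquitin ligase that takes part in the degradation of NIK (2.93, SE 0.600), and Tnfrsf12a, a receptor that signals through NIK (2.02, SE 0.269). Nfkb2 and Tnfrsf12a were DEGs in all 6 fits without a library, but Relb and Birc3 only in 2 of 6. Relb was not a DEG with library size scaling (0.92), and Birc3 was not with a replicate block (edgeR adjusted p = 0.105) or with no filter on low counts (edgeR adjusted p = 0.11). The second ligase gene, Birc2, had a log2 fold change of 0.72 (SE 0.174, edgeR adjusted p = 0.0317), below the fold limit.

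Map3k21 (ENSMUSG00000031853, chromosome 8, 125910450 to 125947440), the gene of the mixed lineage kinase MLK4, was the only one of the 6 that fell. Its level was 23.7, 18.0 and 22.6 CPM at 0 h PCS and, at 6 h PCS, 9.67, 10.9 and 7.05 CPM. All libraries at 6 h PCS were well below those at 0 h PCS. The mean went from 21.5 ± 3.02 to 9.20 ± 1.96 CPM (n = 3, SD), with a log2 fold change of −1.22 (SE 0.224, edgeR quasi-likelihood adjusted p = 0.00981). Without 0 h replicate 1 its adjusted p was 0.058 and it was not called (log2 fold change −1.14). Its closest relatives, the other MLK genes, were not analysed here. Of its listed partners only Mapk9, the gene of JNK2, was matched, with a log2 fold change of −0.62 (SE 0.176, edgeR adjusted p = 0.059).

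Below the MAPKs, Mapkapk2 (ENSMUSG00000016528, chromosome 1, 131053700 to 131097871) encodes MK2, the p38 substrate that phosphorylates mRNA-binding proteins and the heat shock protein encoded by Hspb1. It was at 79.3, 71.2 and 73.8 CPM at 0 h PCS and, at 6 h PCS, 166, 167 and 160 CPM. The libraries of each time point differed little, with coefficients of variation of 5.58% and 2.33%, the smallest of the 6 genes at either time. The mean rose from 74.8 ± 4.17 to 164 ± 3.82 CPM (n = 3, SD), with a log2 fold change of 1.14 (SE 0.122, edgeR quasi-likelihood adjusted p = 0.000619). The fold was close to the limit, and with library size scaling it was 0.82 on the log2 scale and Mapkapk2 was no longer a DEG.

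Mapkapk3, the gene of the related kinase MK3, went from 3.83 ± 1.38 to 9.35 ± 1.22 CPM (n = 3, SD), with a log2 fold change of 1.29 (SE 0.321, edgeR adjusted p = 0.0373), but it was a DEG in only 1 of 6 fits without a library and not with library size scaling. The ratio of Mapkapk2 to Mapkapk3 per length was 56.0, 36.0 and 25.3 at 0 h PCS and 29.7, 30.7 and 36.6 at 6 h PCS, so the ranges overlapped (p = 0.80, exact two-sided permutation test). Mapk14, the gene of p38 alpha, had a log2 fold change of 0.75 (SE 0.179, edgeR adjusted p = 0.0306), below the fold limit. The ratio of Mapkapk2 to Mapk14 per length was 3.51, 3.76 and 3.65 at 0 h PCS and 4.03, 6.18 and 4.43 at 6 h PCS, apart but again at the smallest possible p of 0.10 (exact two-sided permutation test).

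Of the 9 genes listed around MK2, 6 were matched and tested. Of the 6, 4 were upregulated DEGs, against 11.6% of the named genes tested, and 2 were not called. Besides Mapkapk3 these were Zfp36, which encodes tristetraprolin, an mRNA decay factor phosphorylated by MK2 (log2 fold change 3.87, SE 0.483), its relative Zfp36l1 (3.29, SE 0.264) and Hspb1 (1.93, SE 0.416). Zfp36 and Zfp36l1 were DEGs in all 6 fits without a library, and Hspb1 in 2. Hspb1 was not a DEG with a replicate block (edgeR adjusted p = 0.127) or with no filter on low counts (edgeR adjusted p = 0.132). Over the 21 tested partners of all 6 genes that are not among the 6, 11 were upregulated DEGs (52.4%) and 0 downregulated. Of all named genes tested, 11.6% were upregulated and 2.1% downregulated DEGs. Without 0 h replicate 1, Nfkb1, Tnip2, Relb, Birc3, Hspb1 and Mapkapk3 were no longer DEGs. The partner lists were drawn up with earlier results of these data known, so the counts describe the listed genes and are no evidence on partners in general.

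**Figure D2:**
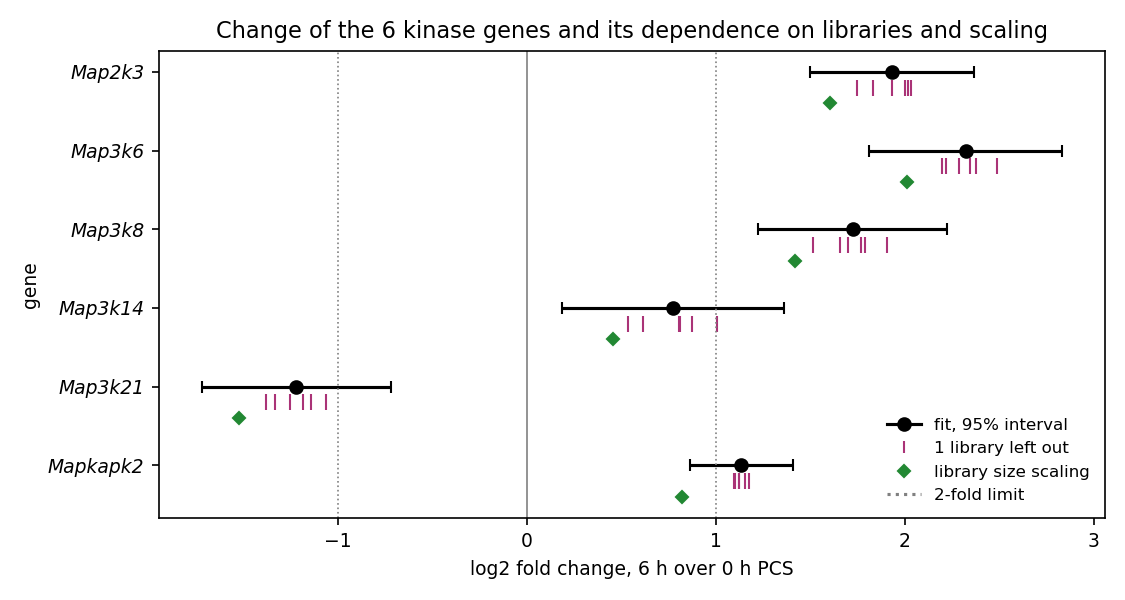
Log2 fold change of each kinase gene at 6 h over 0 h PCS (horizontal axis), with dots for the edgeR fit and bars for its 95% interval. Vertical ticks give the 6 fits that each left out a library, diamonds the fit with library size scaling, and dotted lines the 2-fold limit. The sign of each gene is kept throughout, from 2.32 in Map3k6 to −1.22 in Map3k21, while Mapkapk2 crosses the 2-fold limit with library size scaling (0.82) and Map3k14 without 0 h replicate 3 (1.00, not called).

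Levels of different genes were compared per length, as fragments per kilobase per 1000000 counts (FPKM), computed from total gene counts and without TMM factors. At 0 h PCS the order was Mapkapk2 (27.4 ± 1.26 FPKM), Map2k3 (12.1 ± 2.87), Map3k21 (4.20 ± 0.590), Map3k8 (2.68 ± 0.727), Map3k14 (2.48 ± 0.863) and Map3k6 (1.06 ± 0.239, SD, n = 3). Only Map3k8 and Map3k14 overlapped among neighbours in this order. At 6 h PCS it was Mapkapk2 (48.4 ± 5.01 FPKM), Map2k3 (36.9 ± 1.54), Map3k8 (7.15 ± 1.23), Map3k6 (4.29 ± 0.851), Map3k14 (3.41 ± 0.681) and Map3k21 (1.46 ± 0.405, SD, n = 3), and only Map3k6 and Map3k14 overlapped among neighbours. Map3k21 thus had the third highest level at 0 h PCS and the lowest at 6 h PCS, and Map3k6 moved up from the lowest place. The summed FPKM of the 6 genes went from a mean of 50.0 to a mean of 101.6.

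The shares of the genes in that sum do not depend on the scaling of a library. Mapkapk2 made up 53.6%, 60.9% and 51.3% of it at 0 h PCS and 46.3%, 49.8% and 46.7% at 6 h PCS. Map2k3 made up 25.1%, 20.8% and 26.3% at 0 h PCS and 39.7%, 32.8% and 36.8% at 6 h PCS. The share of Map3k21 was 8.57%, 8.24% and 8.39% at 0 h PCS and 1.44%, 1.73% and 1.10% at 6 h PCS. Map2k3 had thus taken a larger part, and Mapkapk2 and Map3k21 a smaller part, in every library at 6 h PCS. All 5 DEGs among the 6 genes also passed the study's further limits on size, which ask for a level over 2 FPKM at 0 h or 6 h PCS and for a difference over 2 FPKM.

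**Figure D3:**
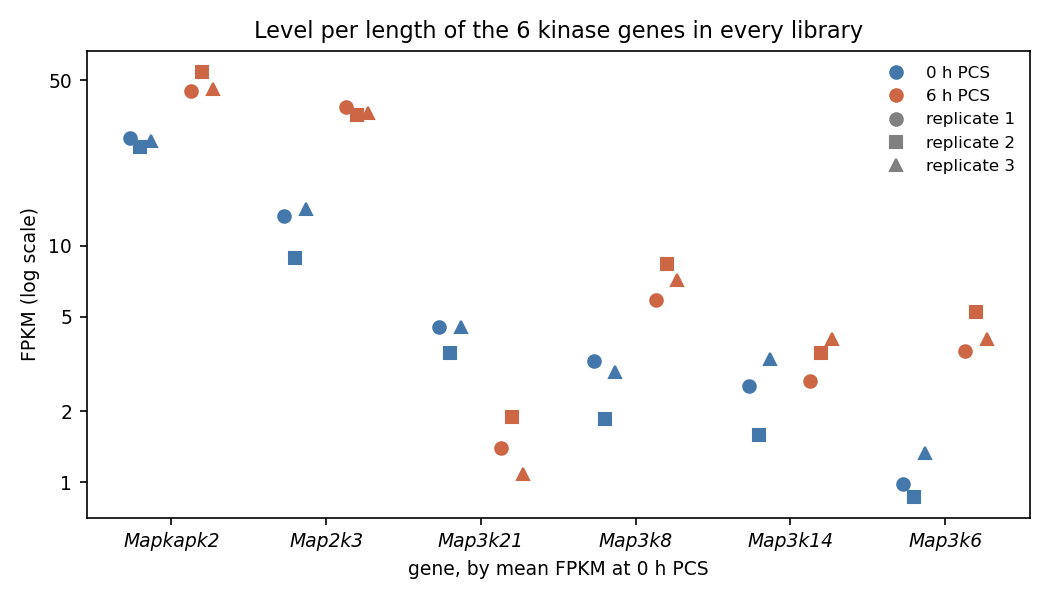
FPKM of each kinase gene in every library (vertical axis, log scale), with genes ordered by their mean at 0 h PCS, blue for 0 h and orange for 6 h PCS, and symbol shapes for the replicate number. Mapkapk2 (27.4 and 48.4 FPKM) and Map2k3 (12.1 and 36.9 FPKM) stay the most abundant at both times, while Map3k21 falls to the lowest place (1.46 FPKM).

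The 0 h libraries were not alike for these genes. In all 6 genes, 0 h replicate 2 had the lowest CPM of the 3 libraries at 0 h PCS, as it had in 37.8% of all tested genes. Without that library the log2 fold changes were 1.75 for Map2k3, 2.20 for Map3k6, 1.52 for Map3k8, 0.53 for Map3k14, −1.33 for Map3k21 and 1.10 for Mapkapk2, and the same 5 genes were DEGs. At 6 h PCS no library was the lowest in all genes, with 3 genes lowest in replicate 1, 1 in replicate 2 and 2 in replicate 3. The summed pigment cell markers of the 6 h libraries ran from 77.4 CPM in replicate 1 to 1965 CPM in replicate 3, with replicate 2 between them. Map3k14 had its 6 h libraries in the same order (21.2, 23.3 and 30.1 CPM), and the other 5 genes did not. Without 6 h replicate 3 the same 5 genes were DEGs, and the part of pigment cells in these values was not tested.

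The wider cascade was described from a list of 64 kinase genes in 5 tiers, of which 27 could be matched to a name, and all 27 were tested. Of these, 7 were upregulated DEGs and 1, Map3k21, was a downregulated DEG. Leaving out the 6 genes described above, 3 of 21 (14.3%) were upregulated DEGs and 0 were downregulated, where 11.6% and 2.1% of all named genes tested were. Among these 21, 1 gene was an upregulated DEG in the fit without 0 h replicate 2, and 2 were in each of the 5 fits without another library. These were not always the same genes. Rps6ka3 was called in all 6 fits, Mapk6 only when 6 h replicate 1 was left out, and Mapkapk3 only when 0 h replicate 3 was. In 3 of the 6 fits the second gene was Mknk2, which is not one of the 3. The median log2 fold change of these 21 was 0.35, where it was 0.19 over all named genes tested. With library size scaling, 4 of the 27 were upregulated and 3 downregulated DEGs, and the median of all tested genes was −0.32.

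The 3 other upregulated DEGs were Rps6ka3, Mapk6 and Mapkapk3. Rps6ka3, which encodes RSK2, a kinase activated by ERK, rose from 32.1 ± 4.21 to 101.1 ± 17.3 CPM (n = 3, SD), with a log2 fold change of 1.66 (SE 0.173, edgeR quasi-likelihood adjusted p = 0.000531), and was a DEG in all 6 fits without a library. Mapk6, which encodes the atypical kinase ERK3, had a log2 fold change of 1.18 (SE 0.254, edgeR adjusted p = 0.0221) and was a DEG in only 1 of those 6 fits and not with library size scaling. Mknk2, the gene of an ERK- and p38-activated kinase, had a log2 fold change of 0.97 (SE 0.166, edgeR adjusted p = 0.00716), just under the fold limit, and was a DEG in 3 of those 6 fits.

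At the MAP3K tier, 8 of the 11 genes matched and tested were not DEGs, where 13.7% of all named genes tested were DEGs. The 3 DEGs, Map3k6, Map3k8 and Map3k21, are among the 6 genes chosen with results known. Of the other 7, 0 were DEGs by edgeR. An unadjusted p under 0.05 was reached by 5 of them, and the share of all tested genes that reached it was not counted. Besides Map3k14, the genes not called included Map3k1 (log2 fold change −0.44, SE 0.152), Map3k2 (0.50, SE 0.161) and Map3k4 (0.52, SE 0.133), all kinases of the MEKK group. Map3k4 passed the false discovery rate (edgeR adjusted p = 0.0423) but not the fold limit. Map3k20, which encodes the stress kinase ZAK, had a log2 fold change of −0.78 (SE 0.179, edgeR quasi-likelihood adjusted p = 0.0262) and passed both limits, downward, only when libraries were scaled on size (−1.08). The only MAP4K gene that could be matched to a name, Map4k5, had a log2 fold change of 0.82 (SE 0.152, edgeR adjusted p = 0.0102). Of the 12 scaffold genes listed, 4 were matched and tested and 0 were DEGs by edgeR, a count too small to read against the 13.7% of all named genes tested, with a range of log2 fold changes from −0.21 to 0.57. The lowest unadjusted p among them, 0.00589, was that of Ksr1.

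**Figure D4:**
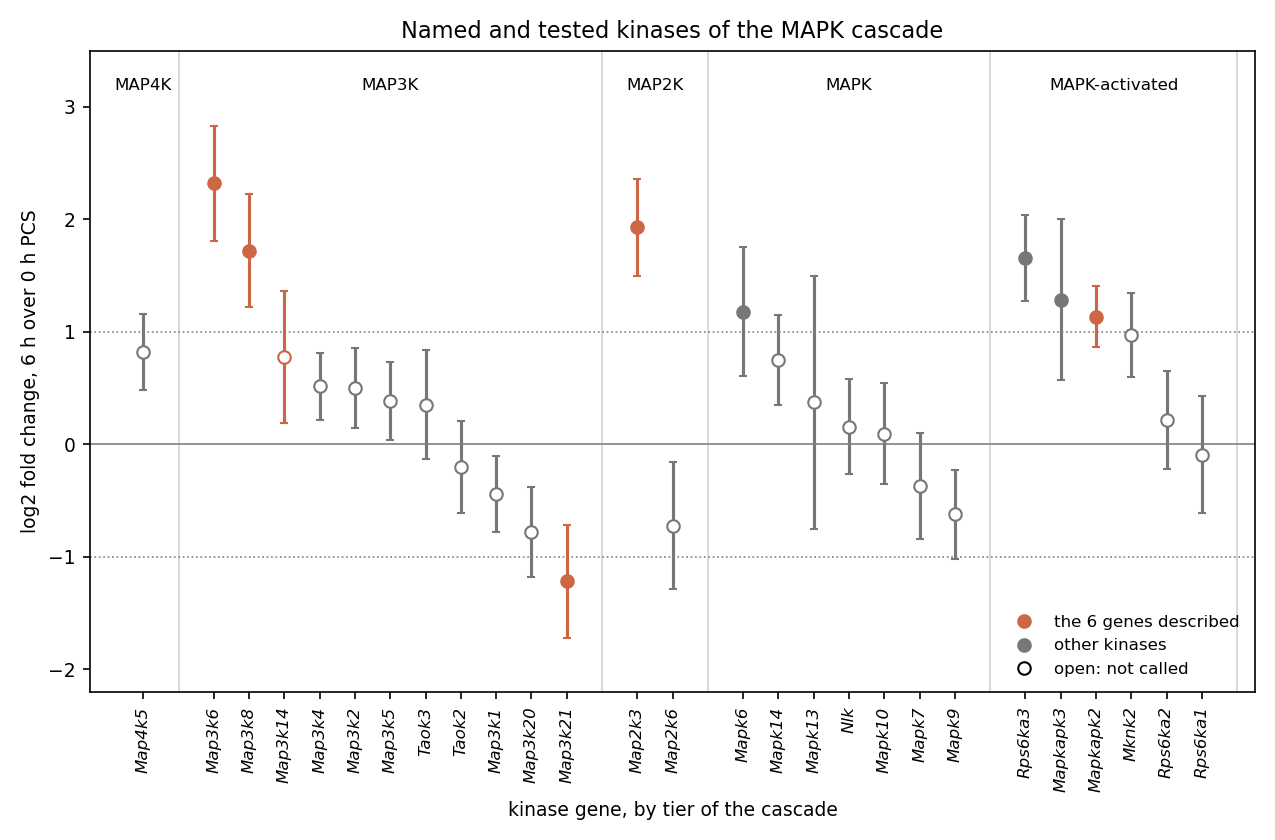
Log2 fold change at 6 h over 0 h PCS (vertical axis) of the 27 named and tested kinase genes, grouped by tier of the cascade, with bars for the 95% interval of the edgeR fit, filled dots for DEGs and dotted lines at the 2-fold limit. The 6 genes described are in orange. Map3k6 (2.32) and Map3k21 (−1.22) mark the ends of the range, and 19 of the 27 genes are open dots, which were not called.

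For each of the 6 genes, the 3 named genes were sought whose log2 CPM followed it most closely over the 6 libraries. Closeness was taken as the Pearson correlation, given without a test, and since the libraries fall into 2 time points it mostly ranks how evenly a gene changed between them. Map2k3 was followed by Plekhg2, Oaf and Zswim6 (correlations of 1.00, 0.999 and 0.998) and Map3k6 by Blnk, the cytokine gene Csf1 and Ywhag (0.999, 0.998 and 0.996). Map3k8 was followed by Bcl10, the gene of an adaptor in NF-kB signaling, the tropomyosin gene Tpm1, and Dusp10, the gene of a phosphatase for p38 and JNK (0.999, 0.999 and 0.997). Map3k14 was followed by Ifitm10, Myo18b and the transcription factor gene Ets1 (0.994, 0.993 and 0.987). Map3k21 was followed by Hars2, Zkscan8 and Pot1a (0.997, 0.997 and 0.995), and Mapkapk2 by Sf1, Plk2 and Tcim (0.998 each).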

How the data were processed

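RNAseq measured wild type LECs at 0 h and 6 h PCS in 3 pools each. The authors used HISAT2 to align read pairs of 101 nt (GRCm38) and HTSeq in union mode for counting, and each deposited file holds raw counts per Ensembl gene, between 18039974 and 24701039 per library, with 5 summary rows that were left out (33.6% to 41.2% of pairs were on genes). Versions of these tools and the strand setting are not given in the sources used here. With edgeR 4.0.16 in R 4.3.3, genes were filtered with filterByExpr, scaled with TMM and compared with robust dispersions and the quasi-likelihood F-test in its earlier form. The standard error is the absolute log2 fold change divided by the square root of F. DEGs had an FDR of at most 0.05 over 16810 genes and a fold change above 2. The fit was tested on simulated data. DESeq2 1.42.0 was an alternative. Intervals of 95% use the total degrees of freedom of the fit. The methods describe pools of independent animals, while by the labels pools of both times can share mice, and p-values measure the spread between pools.

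Names and exon lengths come from the readable parts of the study's supplementary tables, which name 6372 of the tested genes and lean towards changed genes. Columns of fold changes and p-values there were not used. Coordinates are those of RefSeq for GRCm38.p6. The 6 genes, the lists and the tests were chosen with earlier results of these data known. Named in the text were the 6 genes, their relatives and partners, DEGs of the listed kinases, overlapping or adjacent genes and the 3 closest patterns per gene. Kinases under the fold limit, Ksr1 and the other cells' markers were named after their values were seen. Same-numbered libraries were not taken as pairs. The correlations of their deviations from the time point means were −0.008, 0.283 and 0.156. Differently numbered libraries had −0.234 to 0.054, so 0.283 and 0.156 were the highest values. With 3 libraries per time point, these correlations cannot decide whether the libraries should be paired. Alternatives were other tests, scalings and filters, a replicate block and leaving out each library. Sequences were not analysed here.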

Additional observations from a re-analysis of the deposited data

How the results depend on the processing

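Map2k3 and Map3k6 were upregulated DEGs under all alternatives tried, with log2 fold changes from 1.61 to 2.03 and from 2.01 to 2.49. Against a tested fold change of 2 (glmTreat), 2 of the 6 genes were upregulated DEGs and 0 downregulated, and Map3k8 (log2 fold change 1.72, adjusted p = 0.0602), Map3k21 (−1.22, 0.982) and Mapkapk2 (1.14, 0.868) were lost, with 217 upregulated and 4 downregulated DEGs over all genes and 3 and 0 among the 27 kinases. This test asks for more than a 2-fold change, so fewer calls follow from its construction. With library size scaling, Mapkapk2 was lost (0.82), 4 kinases were upregulated and 3 downregulated, and 572 genes were upregulated and 627 downregulated DEGs. DESeq2 called 1147 and 244, the exact test of edgeR 253 downregulated, and the fit with no filter 257 downregulated. The cause was not tested. Without a library in turn, between 4 and 4 of the 6 genes were upregulated and between 0 and 1 downregulated DEGs, Map3k21 ranged from −1.38 to −1.06 and was lost without 0 h replicate 1 alone (−1.14, adjusted p = 0.058), upregulated kinases were 5 (without 0 h replicate 2) to 6 and downregulated ones 0 to 1, and downregulated genes 43 (without 0 h replicate 1) to 140, with 53 without 0 h replicate 3. On TMM effective library sizes Map2k3 at 6 h PCS was at 41.5 FPKM, and Mapkapk2 at 24.6 and 54.0 FPKM at 0 h and 6 h PCS. With the replicate block, 888 genes were upregulated and 162 downregulated DEGs, the same 5 of the 6 genes among them, while Map2k3os (4.09, adjusted p = 0.173), Birc3 (2.79, 0.105) and Hspb1 (1.79, 0.127) were lost and Map3k14 reached an adjusted p of 0.0421 at a log2 fold change of 0.81. With no filter Map3k14 had an adjusted p of 0.0107 at 0.76, under the fold limit in both. All adjusted p-values here are from edgeR. Exon lengths from an annotation were not run.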
